A study of Mus musculus with 6 samples.

Results

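The genes of fatty acid oxidation and their PPAR regulators were examined by RNA-seq of CD8+ Teff cells grown in culture. They comprised 35 genes, of the 34745 in the deposited files, chosen by symbol for a role in mitochondrial or peroxisomal beta-oxidation, the carnitine acyltransferases, the PPARs and their coactivators, or fatty acid uptake. No measured value is part of that rule, though the members were chosen with earlier results of these data known. Of the 35 genes, 30 had a mean FPKM (counts relative to the length of the gene and the size of the library) of at least 1 and were tested, 5 lay under it (Cpt1b, Acad10, Ppara, Ppargc1a and Cd36), and 1 of these, Ppara, had no count in any library.

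The study compared 3 WT with 3 Scd-1-/- libraries. Splenic CD8+ T cells of male mice aged 6 to 8 weeks had been activated for 3 days with 5 μg/mL anti-CD3, 0.5 μg/mL anti-CD28 and 100 U/mL IL-2, then kept in IL-2 for 3 days and harvested on day 6. The Scd-1-/- mice were of the line B6.129-Scd1tm1Ntam/J, a knockout of the whole body, and the WT mice were purchased C57BL/6J, so the deletion was not limited to T cells, and a difference between the lines other than Scd1 cannot be told apart from the deletion. The labels do not say whether the replicates of a genotype came from separate mice or cultures, so p-values measure only the spread between these libraries.

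Beta-oxidation shortens a fatty acid step by step. The acyl chain is activated to acyl-CoA, is carried into the mitochondrion as acylcarnitine, and passes through dehydrogenation, hydration, a further dehydrogenation and thiolytic cleavage, while electron transfer flavoprotein hands electrons to the respiratory chain. Very long and branched chains are shortened first in peroxisomes. PPARs are nuclear receptors that bind fatty acids, pair with RXR on DNA and raise many of these genes in liver, muscle and fat. Activated effector T cells rely mainly on glycolysis, and fatty acid oxidation is best known in memory CD8+ T cells. Scd1 encodes stearoyl-CoA desaturase 1, which makes oleate and palmitoleate from saturated acyl-CoA, a substrate that beta-oxidation shares.

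Total counts per library ran from 14034479 to 15866216, and 0 counts in a library leave room for 3, which is 0.189 to 0.214 CPM (counts scaled to library size with TMM factors), for counting error only. Scd1 had 4272, 3074 and 3761 counts in WT and 30, 36 and 20 in Scd-1-/- libraries, a log2 fold change of -7.04 ± 0.28 (SE, n = 3 per genotype; adjusted p = 0.00011 in the edgeR quasi-likelihood fit after Benjamini-Hochberg correction). The 6 markers of CD8 T cells summed to 2674 to 3404 CPM in WT and 2551 to 3015 CPM in Scd-1-/- libraries. Of these, Cd8a had 336, 364 and 351 CPM in WT and 285, 214 and 263 CPM in Scd-1-/- libraries. Every Scd-1-/- library lay lower, as in 7.60% of all tested genes. Its log2 fold change was -0.46 (unadjusted p = 0.011, adjusted p = 0.297 in the edgeR quasi-likelihood fit). Those of Cd8b1, Cd3d, Cd3e, Cd3g and Trac were -0.30, -0.03, -0.002, -0.005 and -0.04. Markers of natural killer cells summed to 19.5 to 27.3 CPM in WT and 46.6 to 129 CPM in Scd-1-/- libraries, a range carried by Klrb1c and Klra7. Ncr1 had 0, 4 and 5 counts in WT and 0, 0 and 2 in Scd-1-/- libraries. Klra8 and Klra4 had 1 and 4 counts over the 6 libraries together. Those of B cells summed to 313 to 604 and 216 to 328 CPM, carried by Ighm and Cd79b, with Ms4a1 and Pax5 at 0. Markers of CD4 T cells summed to 43.9 to 83.8 and 57.2 to 79.4 CPM, carried by Zbtb7b, while Cd4 itself had 8, 24 and 12 counts in WT and 5, 2 and 1 in Scd-1-/- libraries. Those of erythroid cells and adipocytes summed to at most 0.637 and 0.212 CPM in any library. Replicate 1 of both genotypes stood apart from the other libraries along the first principal component, which held 42.9% of the variance, and genotype lay along the second with 36.3%.

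None of the 30 tested genes of fatty acid oxidation differed between the genotypes at the thresholds of the study, an absolute log2 fold change of 1 or more and an unadjusted p under 0.001, which 71 of 9627 genes passed (0.738%). At an adjusted p under 0.05, 0 of 30 passed, against 11 of 9627 genes (0.114%), in the edgeR quasi-likelihood fit after Benjamini-Hochberg correction over all tested genes. At an unadjusted p under 0.05, 1 of the 30 passed, Acadvl, against 10.1% of all tested genes. DESeq2 on the same genes, and edgeR with the replicate number as a block, each gave 0 of 30 at an adjusted p under 0.05, against 2.76% and 4.70% of all tested genes. With the block, 3 of 30 had an unadjusted p under 0.05 (Acadvl, Crot and Ppargc1b), against 22.4%.

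The log2 fold changes of the 30 genes ran from -0.56 to 0.49, with a median of -0.02, against a median of -0.000506 for all tested genes. Of the 30, 13 were above 0 and 17 below, and the median size was 0.131 against 0.178 for all tested genes. The 95% interval lay within 1 of 0 on the log2 scale for 27 of the 30, against 77.0% of all tested genes, and within 0.5 of 0 for 8 of the 30, against 21.4%. With the replicate block these counts were 29 of 30 (86.7% of all tested genes) and 19 of 30 (45.5%). Together the 35 genes took between 0.191% and 0.207% of the counts of a library.

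**Figure D1:**
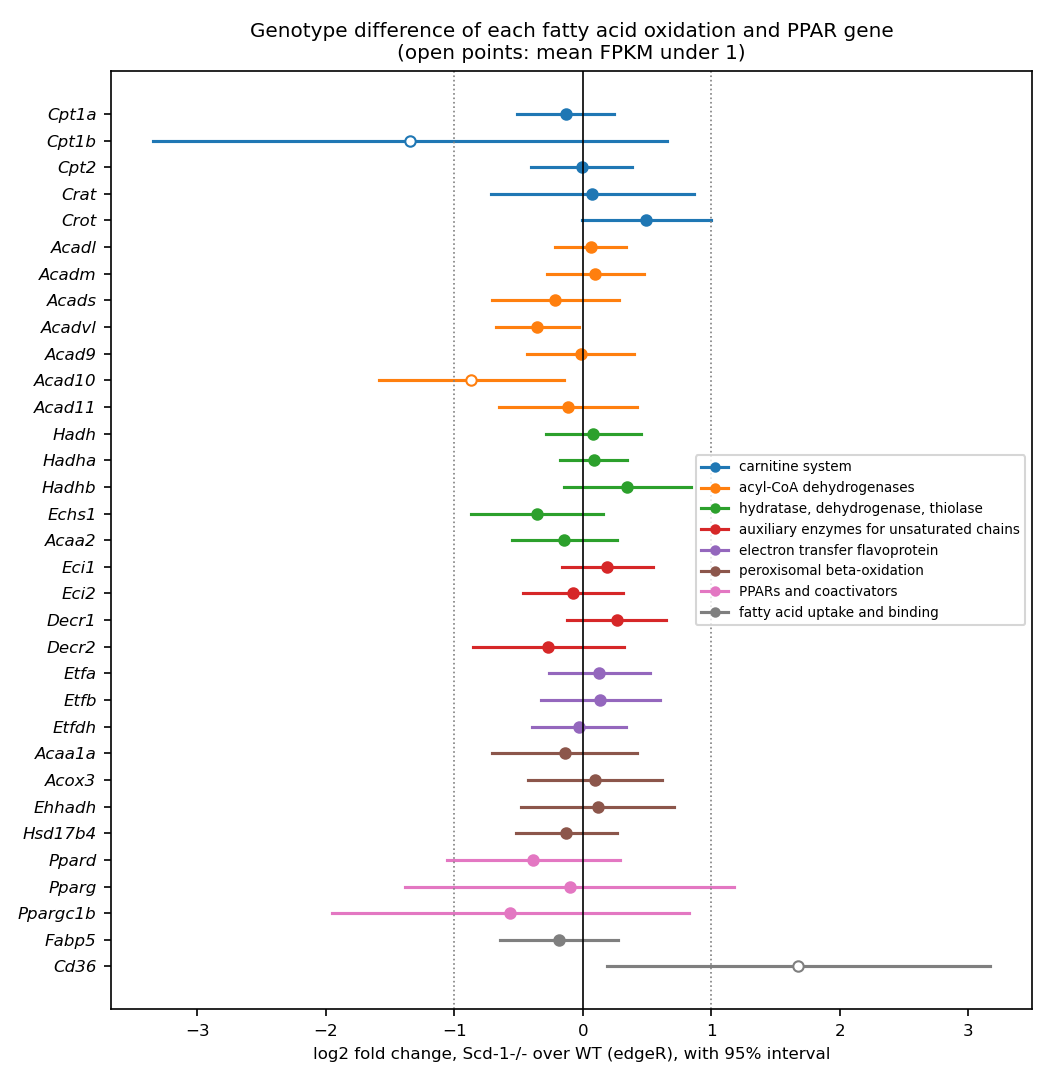
Log2 fold change (Scd-1-/- over WT, x axis) with its 95% interval for the 33 genes of the set with more than 3 counts, coloured by role, with open points for genes whose mean FPKM was under 1 and dotted lines at -1 and 1. The filled points lie between -0.56 and 0.49, and the widest intervals belong to Cpt1b, Cd36, Pparg and Ppargc1b.

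The members differed far more from each other than between genotypes. Acadl, the long-chain acyl-CoA dehydrogenase, had 91.2, 82.5 and 89.3 FPKM in WT and 87.3, 87.9 and 94.7 FPKM in Scd-1-/- libraries. Acaa2, the mitochondrial thiolase, followed with a mean of 65.2 ± 8.0 in WT and 58.1 ± 9.7 FPKM (SD, n = 3) in Scd-1-/- libraries. Of the 35 genes, 11 had a mean above 20 FPKM and 12 a mean between 1 and 5 FPKM. Over the 30 tested genes, the SD of log2 FPKM within a genotype ran from 0.042 to 1.04, with a median of 0.222.

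The order of levels depended on the gene length used. The length behind the deposited FPKM was 0.960 to 5.39 times that of the principal transcript, and over 2 times in 19 genes. Per length of the principal transcript, Etfb and Fabp5 ranked first and second (163 and 153 FPKM), ahead of Acadl (94.5 FPKM), and 3 of the 5 highest genes on the deposited scale stayed among the 5 highest. The largest shift was 8 ranks. This choice changes levels between genes, not the ratio between genotypes.

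**Figure D2:**
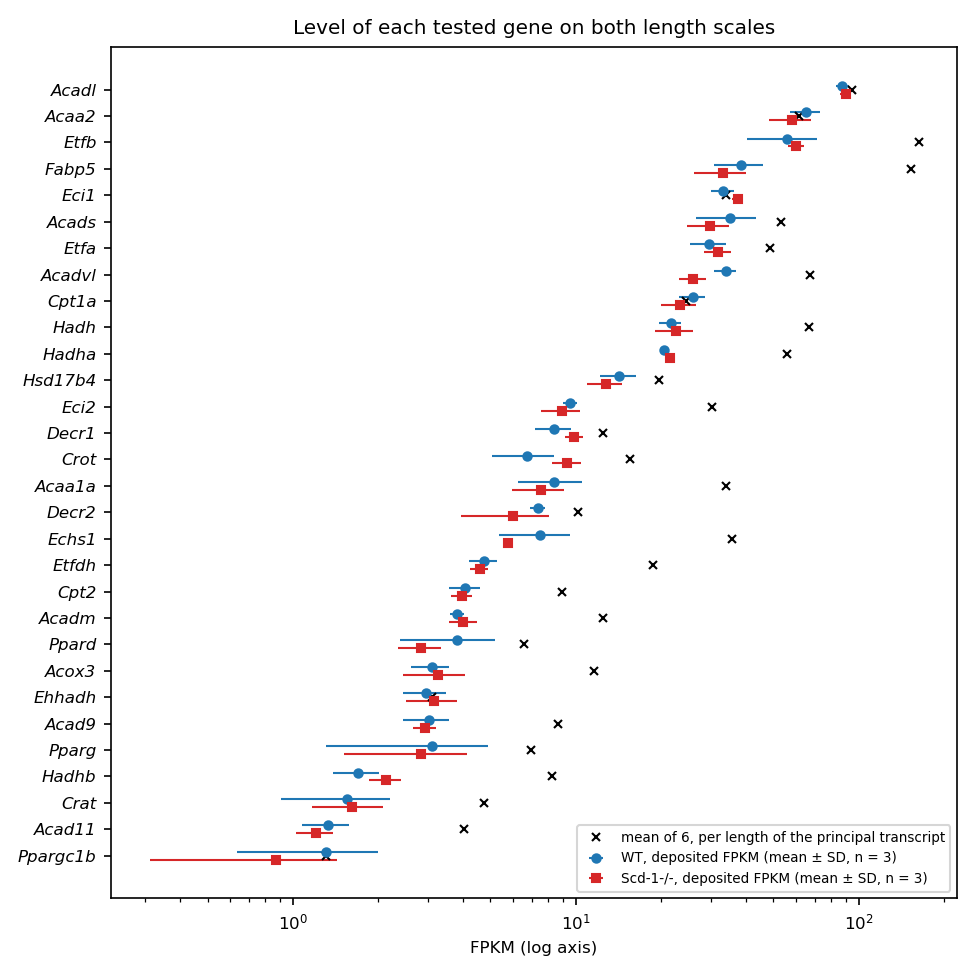
Level of each of the 30 tested genes (FPKM, log axis) as mean ± SD of the 3 WT (circles) and 3 Scd-1-/- libraries (squares) on the deposited length scale, with crosses for the mean of the 6 libraries per length of the principal transcript. Acadl is highest in both genotypes on the deposited scale, and the crosses lie to the right wherever the deposited length exceeds that of the principal transcript.

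The carnitine system moves acyl groups across the mitochondrial membranes. Cpt1a (chr19:3322334-3385733), the outer membrane acyltransferase that sets the rate of entry, had 1834, 1610 and 1401 counts in WT and 1716, 1503 and 1328 in Scd-1-/- libraries. These are 28.1, 26.7 and 22.9 FPKM against 25.6, 24.8 and 19.5 FPKM, and the groups overlap. Within the pairs numbered 1, 2 and 3 the log2 ratio was -0.14, -0.099 and -0.17. The log2 fold change was -0.13 ± 0.16 (SE), with a 95% interval from -0.51 to 0.24 (adjusted p = 0.865 in the edgeR quasi-likelihood fit after Benjamini-Hochberg correction), and -0.14 with the replicate block (adjusted p = 0.457 in the same edgeR test). Cpt1a was the only one of the 35 genes on chromosome 19, which also holds Scd1, 41008722 bases away.

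Cpt1b, the muscle isoform, was near the floor, with 9, 4 and 5 counts in WT and 2, 3 and 2 in Scd-1-/- libraries. Its exons overlap those of the readthrough gene Gm44502 over 2744 bases, so these counts could belong to either. Cpt2, the inner membrane partner of Cpt1a, had 281, 318 and 334 against 295, 311 and 351 counts, and a log2 fold change of -0.01 ± 0.17 (SE). Slc25a20, the carrier that exchanges acylcarnitine for carnitine, is not one of the 35 genes and gave 0.08 on the log2 scale. Crat, which makes acetylcarnitine, had 436, 240 and 185 counts in WT and 419, 255 and 259 in Scd-1-/- libraries, so both replicates numbered 1 exceeded the other libraries, and its log2 fold change was 0.07 ± 0.34 (SE).

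Crot, the peroxisomal octanoyltransferase that hands shortened chains on to the mitochondrion, had 760, 452 and 491 counts in WT and 748, 759 and 960 in Scd-1-/- libraries. The WT library numbered 1 lies among the Scd-1-/- libraries, and the other WT libraries lie below them. Its log2 fold change was 0.49 ± 0.22 (SE), with an unadjusted p of 0.053 and an adjusted p of 0.504 in the edgeR quasi-likelihood fit after Benjamini-Hochberg correction. In replicates 2 and 3 alone it was 0.81, with an adjusted p of 0.0083 by the same edgeR test. In the pair numbered 1 the log2 ratio was -0.06. In replicates 2 and 3 alone, 2 of the 30 genes, Crot and Acadvl, had an adjusted p under 0.05, against 12.6% of all tested genes. Such a fit leaves out replicate 1, and its p-values measure only the spread of 2 close libraries per genotype. By chi-square per degree of freedom of the counts, replicates 2 and 3 differed by 14.8 in WT and 12.2 in Scd-1-/- libraries. From replicate 1 of their genotype they differed by 51.3 to 62.1.

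The acyl-CoA dehydrogenases take the first oxidative step and differ by chain length. Acadvl (chr11:70010183-70015411), which acts on very long chains, had 31.6, 37.4 and 32.7 FPKM in WT and 29.3, 24.9 and 24.0 FPKM in Scd-1-/- libraries. Every Scd-1-/- library lay below every WT library, which held for 7.60% of all tested genes in that direction. Its log2 fold change was -0.36 ± 0.14 (SE; unadjusted p = 0.035, adjusted p = 0.448 in the edgeR quasi-likelihood fit after Benjamini-Hochberg correction), and -0.48 in replicates 2 and 3 alone (adjusted p = 0.0316 by the same test). Its exons overlap those of Dvl2 on the opposite strand over 1151 bases, and the sources used here do not say whether strand was used in counting.

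Acad10, a less studied dehydrogenase of the family, was low, with 132, 103 and 106 counts in WT and 87, 65 and 41 in Scd-1-/- libraries. The groups did not overlap, with every Scd-1-/- library lower, as in 3 of 34 members (Acad10, Acadvl and Cpt1b) and 6.82% of the genes with a count. The log2 fold change in a fit that took in all 17192 genes counted at least once was -0.87 ± 0.33 (SE; unadjusted p = 0.023, adjusted p = 0.447 in the edgeR quasi-likelihood fit after Benjamini-Hochberg correction). In replicates 2 and 3 alone it was -1.0, with an adjusted p of 0.00668 by the same edgeR test. Acad12 matches Acad10 at 95.3% over 1614 bases, so reads could be shared. Among the other dehydrogenases the log2 fold changes were 0.06 for Acadl, 0.10 for the medium-chain Acadm, -0.02 for Acad9 and -0.12 for Acad11. The short-chain Acads gave -0.21, with a 95% interval from -0.71 to 0.28.

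The next steps are hydration, hydroxyacyl-CoA dehydrogenation and cleavage. Hadha and Hadhb encode the 2 subunits of the mitochondrial trifunctional protein and stand head to head on chromosome 5. Hadha had 3409, 3055 and 3106 counts in WT and 3673, 3104 and 3701 in Scd-1-/- libraries, a log2 fold change of 0.08 ± 0.11 (SE), the smallest SE of the 30 genes. Hadhb had 221, 251 and 177 against 248, 283 and 321 counts, and a log2 fold change of 0.35 ± 0.21 (SE; unadjusted p = 0.144). Although the products form 1 complex, the level of Hadha was 11.0 times that of Hadhb in deposited FPKM and 6.81 times per length of the principal transcript. The processed pseudogene Gm13910 matches Hadhb at 99.8% over 1428 bases, and how reads that fit both were counted is not given in the sources used here. The 85 bases between the gene starts are shown because they part the starts of both genes (chr5:30155163-30155247, GRCm38, plus strand, with each GGGCGG, the letters that Sp factors bind, in capitals).
Hadha-Hadhb gap: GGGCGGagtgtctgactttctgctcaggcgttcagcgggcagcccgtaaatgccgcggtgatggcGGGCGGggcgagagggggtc
Searched on both strands, it held GGGCGG 2 times and CCAAT 0 times, with a GC content of 69.4%.

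The remaining enzymes of the spiral did not pass the test either. Hadh, the short-chain hydroxyacyl-CoA dehydrogenase, gave 0.08 on the log2 scale, Echs1, the short-chain hydratase, -0.36 (unadjusted p = 0.147), and Acaa2 -0.14. The WT values of Echs1 were 9.76, 6.99 and 5.64 FPKM, with the highest in replicate 1, and the Scd-1-/- values were 5.61, 5.92 and 5.74 FPKM. Without the WT library numbered 1 the log2 fold change of Echs1 was -0.097. Of the auxiliary enzymes that deal with double bonds, the kind of chain that Scd1 makes, Eci1 had 36.9, 39.3 and 31.7 CPM in WT and 39.8, 42.8 and 40.8 CPM in Scd-1-/- libraries. Its groups did not overlap in CPM, which held for 8.42% of all tested genes in that direction, and its log2 fold change was 0.19 ± 0.15 (SE; adjusted p = 0.753 in the edgeR quasi-likelihood fit after Benjamini-Hochberg correction). Eci2 gave -0.08, the dienoyl-CoA reductase Decr1 0.26 and its peroxisomal counterpart Decr2 -0.27 on the log2 scale. Acadvl and Eci1 were thus the 2 of 30 genes whose groups did not overlap in CPM, though those of Eci1 overlap in deposited FPKM, against 16.0% of all tested genes.

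Electrons leave the dehydrogenases through electron transfer flavoprotein. Its subunit Etfb had 40.8, 71.5 and 55.0 FPKM in WT and 56.3, 64.3 and 60.1 FPKM in Scd-1-/- libraries, so the widest spread was within WT. The log2 fold changes were 0.14 for Etfb, 0.13 for the other subunit Etfa and -0.03 for Etfdh, the oxidoreductase that passes electrons to ubiquinone. The peroxisomal enzymes Acaa1a, Acox3, Ehhadh and Hsd17b4 gave -0.14, 0.09, 0.11 and -0.13. For Acaa1a, the thiolase, its near copy Acaa1b (96.6% over 1428 bases) could share reads. Summed per library, the 4 peroxisomal genes took 152 to 192 CPM in WT and 145 to 187 CPM in Scd-1-/- libraries.

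The PPARs were unequal. Ppara, the receptor that drives oxidation in liver and heart, had 0 counts in all 6 libraries, which allows up to 0.214 CPM in a library. Ppard, which is found in most tissues, had 235, 471 and 347 counts in WT and 238, 256 and 345 in Scd-1-/- libraries, a log2 fold change of -0.39 ± 0.29 (SE), with a 95% interval from -1.06 to 0.29. Without the WT library numbered 2, the highest, it was -0.085. Pparg, the adipocyte receptor, had 67, 257 and 226 against 86, 221 and 222 counts, a log2 fold change of -0.10 ± 0.55 (SE) with an interval from -1.39 to 1.18. Both libraries numbered 1 lay far below the others for Pparg, and replicates 2 and 3 together stood 3.15 times above replicate 1.

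The coactivators followed the same split. Ppargc1a, which stimulates mitochondrial biogenesis, had 0, 0 and 0 counts in WT and 0, 0 and 1 in Scd-1-/- libraries, so no fold is given. Its relative Ppargc1b had 35, 104 and 107 counts in WT and 22, 89 and 59 in Scd-1-/- libraries. Its log2 fold change was -0.56 ± 0.60 (SE; unadjusted p = 0.373), and -0.61 with the replicate block (unadjusted p = 0.043, adjusted p = 0.206 in the edgeR quasi-likelihood fit after Benjamini-Hochberg correction). Replicates 2 and 3 stood 3.28 times above replicate 1.

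**Figure D3:**
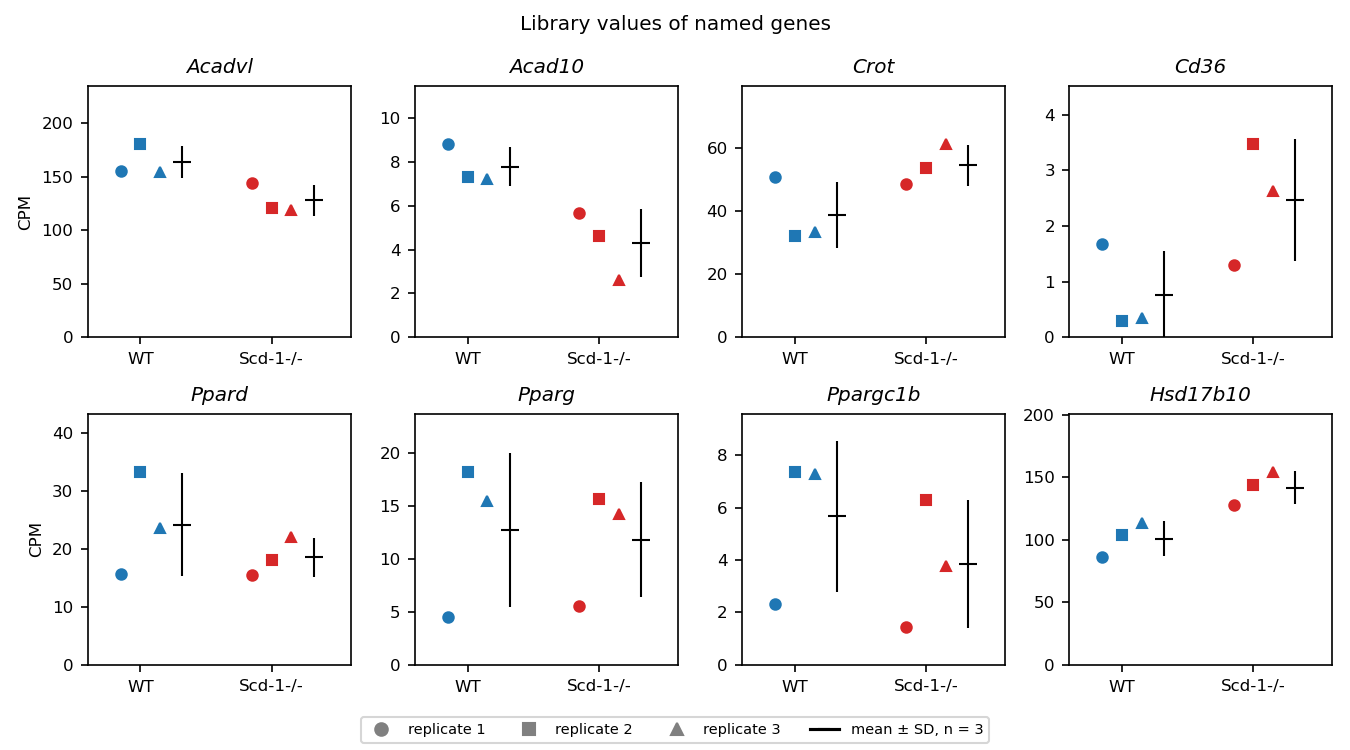
CPM in each library of Acadvl, Acad10, Crot, Cd36, Ppard, Pparg, Ppargc1b and Hsd17b10 in WT and Scd-1-/- (each symbol a replicate number), with the mean ± SD (n = 3) beside them and bars cut at 0. Acadvl and Acad10 lie lower and Hsd17b10 higher in every Scd-1-/- library, whereas for Pparg and Ppargc1b the libraries numbered 1 lie lowest in both genotypes.

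Of the 30 genes, 15 had both libraries numbered 1 outside the range of the other 4, against 44.6% of all tested genes. In 6 of them replicate 1 was below (Cpt2, Fabp5, Hsd17b4, Ppard, Pparg and Ppargc1b, against 21.4%), and in 9 above (Acaa1a, Acaa2, Acadm, Acox3, Crat, Decr2, Eci2, Ehhadh and Hadh, against 23.3%). The labels do not say what replicate number stands for, and its part in these values was not tested.

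**Figure D4:**
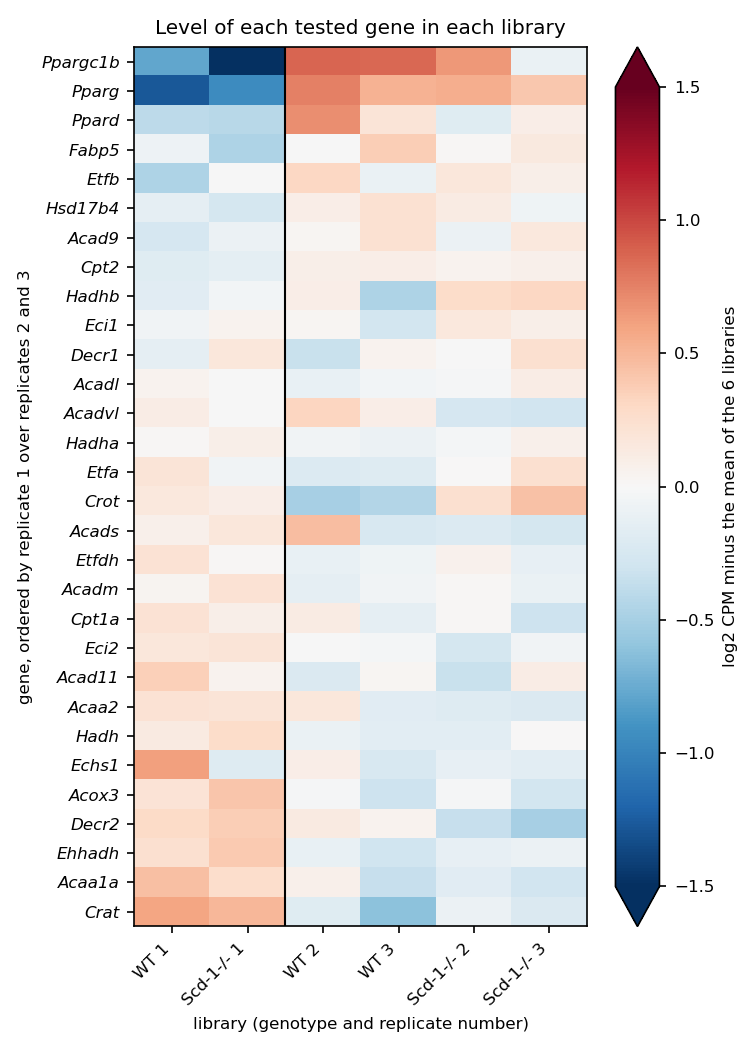
Level of the 30 tested genes (rows) in the 6 libraries (columns) as log2 CPM minus the mean of the libraries, blue for lower and red for higher, with replicate 1 of both genotypes in the left columns. Pparg and Ppargc1b are blue in both left columns and Crat and Acaa1a are red in both.

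Fatty acid uptake was covered by Fabp5, the binding protein of T cells and skin, and Cd36, a membrane receptor for long-chain fatty acids. Fabp5 had 2109, 2102 and 2827 counts in WT and 1668, 2134 and 2572 in Scd-1-/- libraries, a log2 fold change of -0.19 ± 0.20 (SE; adjusted p = 0.831 in the edgeR quasi-likelihood fit after Benjamini-Hochberg correction). Cd36 was low, with 25, 4 and 5 counts in WT and 20, 49 and 41 in Scd-1-/- libraries. Here the WT library numbered 1 lay above the Scd-1-/- library numbered 1, and the other Scd-1-/- libraries lay above all others. In the fit to all genes with a count, Cd36 gave 1.68 ± 0.68 (SE) on the log2 scale (unadjusted p = 0.031, adjusted p = 0.495 in the edgeR quasi-likelihood fit after Benjamini-Hochberg correction), 2.94 without the WT library numbered 1, and 3.26 in replicates 2 and 3 alone (adjusted p = 5.98e-07 by the same test). In that last fit to all genes with a count, Acad10 and Cd36 were the 2 of 34 members past the thresholds of the study, against 4.26% of all genes, and 4 of 34 had an adjusted p under 0.05 (Acad10, Acadvl, Cd36 and Crot), against 13.9%.

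Cd36 is also a gene of myeloid cells, whose markers were low and differed in direction. The list of 8 identifiers summed to 1.27 to 4.74 CPM in WT and 5.05 to 7.21 CPM in Scd-1-/- libraries, and 0 of the 8 reached the FPKM minimum. Cd14 had 11, 5 and 4 counts in WT and 28, 42 and 40 in Scd-1-/- libraries, and Mpeg1 had 4, 2 and 3 against 0, 0 and 1. Itgam was listed under 2 identifiers, with 16, 0 and 5 against 83, 13 and 16 counts for the first and 40, 9 and 11 against 0, 13 and 21 for the second. Cd14 and Cd36 were both lowest in replicate 1 among the Scd-1-/- libraries, while the summed level was highest there, through the 83 counts of Itgam. Adgre1 and Fcgr1 were at 0 in every library, and Lyz2 and Csf1r had at most 4 counts in any. Their part in the level of Cd36 was not tested, and in bulk RNA fewer cells of a type cannot be told apart from less RNA per cell.

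The wider pathway was covered by 100 further genes, of which 66 were tested and 11 had no count. The 66 held 0 genes past the thresholds of the study and 0 at an adjusted p under 0.05 (0.738% and 0.114% of all tested genes) in the edgeR quasi-likelihood fit. With DESeq2 they held 0 at an adjusted p under 0.05, against 2.76% of all tested genes. At an unadjusted p under 0.05 they held 3, or 4.55%, against 10.1% of all tested genes. These were Hsd17b10 (0.49), a mitochondrial dehydrogenase of branched-chain acyl-CoA, Hibch (0.55), a hydrolase of valine breakdown, and Pprc1 (-0.59), a coactivator of the Ppargc1 family. Hsd17b10 had 1287, 1464 and 1662 counts in WT and 1963, 2026 and 2417 in Scd-1-/- libraries, with every Scd-1-/- library higher. In CPM that held for 6 of the 66 (9.09%) and for 8.42% of all tested genes. The adjusted p of Hsd17b10 was 0.316, and 0.0343 with the replicate block, in the edgeR quasi-likelihood fit after Benjamini-Hochberg correction. It was the only one of the 66 that the block brought under 0.05, against 4.70% of all tested genes.

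Of 15 usual targets of the PPARs, 4 (Pdk4, Fabp4, Fabp1 and Cyp4a14) had no count in any library, and 7 had at most 5 counts over the 6 libraries together. The other 4 were tested, and their log2 fold changes were 0.02 for the droplet coat protein Plin2, -0.21 for the mitochondrial carrier Ucp2, 0.35 for the lipase inhibitor Angptl4 and -0.30 for Hilpda. Acsl5, which activates fatty acids, gave -0.02.

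PPAR and RXR bind as a pair to 2 copies of AGGTCA in a row with 1 base of any kind between them, and each partner reads a single AGGTCA. In the 250 bases before the RefSeq start (GRCm38.p6), searched on both strands, this repeat was found in 0 of the 27 members with a window and in 0.0407% of 27025 genes. AGGTCA, which the repeat contains, was found in 6 of the 27 (22.2%) against 15.8% of all genes. It is shown for the rate-setting Cpt1a, for Acadvl and for Cd36, each read on the strand of its gene (plus for Cpt1a, minus for Acadvl and Cd36), with AGGTCA or its reverse complement in capitals. The first lies at chr19:3323187-3323232, in an intron of a longer Cpt1a transcript, the second at chr11:70015490-70015535, outside any annotated gene, and the third at chr5:17836099-17836144, in an intron of Cd36.
Cpt1a: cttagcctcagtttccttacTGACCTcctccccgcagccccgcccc
Acadvl: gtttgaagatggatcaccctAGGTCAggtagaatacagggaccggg
Cd36: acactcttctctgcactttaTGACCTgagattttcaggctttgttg
Each match is a run of letters, not a shown binding site. The log2 fold changes of the 6 genes with a match were -0.13 for Cpt1a, 0.10 for Acadm, -0.36 for Acadvl, -0.36 for Echs1, -0.10 for Pparg and 1.68 for Cd36.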

How the data were processed

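HISAT2 alignment to GRCm38 and StringTie 1.3.0 were used by the authors, per their processing notes, and they deposited a whole-number count for each gene, with no normalization. The authors also deposited FPKM, in which counts are divided by gene length and library total. Counts per FPKM showed no TMM factor in them. The methods name RNeasy columns and a stranded total RNA kit, and the labels name Trizol, poly(A) RNA and a VAHTS kit. The annotation release, strand setting and treatment of multi-mapping reads are not given in the sources used here.

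Counts were tested with edgeR 4.0.16 (quasi-likelihood test, TMM, genotype only) over the 9627 genes whose mean FPKM reached 1, and genes under it in a fit to 17192 genes with a count, with Benjamini-Hochberg adjustment over each fit. A 95% interval is that of the log2 fold change. The test was checked on simulated counts without a replicate effect, with changes put in that were larger than those of the tested members. That check does not cover smaller changes or libraries in which replicate 1 stands apart. Alternatives were DESeq2 1.42.0, median-ratio scaling, limma 3.58.1 on log2(FPKM + 1) and log2(FPKM + 0.1), other minimum FPKM values, each library left out, and replicates 2 and 3 alone. Gene positions are those of GENCODE M21, matched by identifier for 98.8% of 34745 genes.

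Deviations of same-numbered libraries from their group means correlated across genes (r of 0.595, 0.306 and 0.470 for replicates 1, 2 and 3, where genes are not independent), and a fit with the number as a block was run. The crossed pairs of replicates 2 and 3 correlated as well (0.380 for WT 3 with Scd-1-/- 2, and 0.180 for WT 2 with Scd-1-/- 3). The correlations thus set replicate 1 of both genotypes apart, but do not show that replicates 2 and 3 are matched by number.

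Genes named in full are Scd1, Cpt1a, Cpt1b, Cpt2, Crat, Crot, the PPARs, Ppargc1a, Ppargc1b, Fabp5, Cd36, the members with an unadjusted p under 0.05, the 5 members of highest mean FPKM and the wider genes with an unadjusted p under 0.01 or past an adjusted p of 0.05 with the block. Other genes given per-library values (Hadha, Hadhb, Echs1, and the markers Cd8a, Ncr1, Cd4, Cd14, Mpeg1 and Itgam) were chosen after their values were seen. The members and lists were chosen with earlier results of these data known. Near-identical genes (at least 95% identity) were found for 15 of the 35 members and overlapping exons for 13, and their counts are uncertain in part.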

Additional observations from a re-analysis of the deposited data

How the results depend on the processing

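Among the 30 tested genes, 0 were called at the thresholds of the study under every alternative run, and 0 at an adjusted p under 0.05 under every alternative but replicates 2 and 3 alone, which called 2. Of the 5 genes under the FPKM minimum, Acad10 and Cd36 passed both thresholds in replicates 2 and 3 alone, and Cd36 passed those of the study without WT replicate 1. For all genes the count at an adjusted p under 0.05 was 11, and 452 with the replicate block, 266 with DESeq2, 17 with limma on log2(FPKM + 1), 84 over all genes with a count, 18 at a mean FPKM of at least 5, 1213 in replicates 2 and 3 alone and 2 to 182 with 1 library left out. At the thresholds of the study it was 71, and 184 with the replicate block, 161 with DESeq2, 148 over all genes with a count, 43 at a mean FPKM of at least 5, 369 in replicates 2 and 3 alone and 25 to 163 with 1 library left out. The 66 tested genes of the wider pathway held 1 call at an adjusted p under 0.05 with the replicate block, Hsd17b10, and 5 in replicates 2 and 3 alone. Among the cell type markers named, the block brought Klrb1c, Klra7, Ighm, Cd79b, Cd14 and 1 of the Itgam identifiers under an adjusted p of 0.05 (edgeR). It changed no other call at that level among the 35 genes, the tested wider genes and the markers named. The cause of these differences was not tested.

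Signs of small changes depended on single libraries. With 1 library left out, the log2 fold change ran from -0.094 to 0.058 for Cpt2, -0.18 to 0.48 for Crat, -0.13 to 0.10 for Acad9, -0.24 to 0.046 for Acad11, -0.047 to 0.18 for Hadh, -0.21 to 0.021 for Eci2, -0.035 to 0.36 for Etfb, -0.094 to 0.082 for Etfdh, -0.33 to 0.077 for Acaa1a, -0.12 to 0.24 for Acox3, -0.073 to 0.28 for Ehhadh, -0.51 to 0.25 for Pparg and -0.16 to 0.17 for Acsl5. With no change of sign, but moved by over 1.5 times, it ran from -0.23 to -0.022 for Cpt1a, 0.018 to 0.11 for Acadl, 0.0042 to 0.17 for Acadm, -0.37 to -0.014 for Acads, 0.22 to 0.49 for Hadhb, -0.54 to -0.097 for Echs1, -0.29 to -0.071 for Acaa2, 0.11 to 0.26 for Eci1, 0.17 to 0.36 for Decr1, -0.59 to -0.10 for Decr2, 0.034 to 0.27 for Etfa, -0.24 to -0.038 for Hsd17b4, -0.62 to -0.085 for Ppard, -1.13 to -0.17 for Ppargc1b, -0.31 to -0.028 for Fabp5 and 1.3 to 2.94 for Cd36. Of the wider genes given above, the log2 fold change moved likewise from 0.045 to 0.13 for Slc25a20 and -0.76 to -0.39 for Pprc1. In replicates 2 and 3 alone, Echs1 gave -0.081, Etfdh 0.067 and Acsl5 0.024. Where a genotype is left with 2 libraries, the fit pools the spread. The 95% intervals of Cpt1b, Acad10 and Cd36, all under the FPKM minimum, reach past 1 in size on the log2 scale. Among the tested genes, so do those of Ppard (-1.06 to 0.29), Pparg (-1.39 to 1.18) and Ppargc1b (-1.95 to 0.82).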
